A study of Homo sapiens with 12 samples.

Results

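The distal end of the short arm of human chromosome 4 was examined as 98 genes, measured by 167 probes, out of the 18646 genes measured in all. Members were all genes with probes whose start lies below base 11500000 of chromosome 4 (GRCh38), from ZNF595 near the telomere to HS3ST1, leaving out PCGF3. The stretch was selected on the log2 ratios of knockdown to control RNA of these same arrays, which lay mostly below 0. Every value of that ratio is therefore given for the members as a description, with no test, and only the difference between the time points was tested. RNA came from NT2/D1 (NTERA2), human embryonal carcinoma cells that retinoic acid drives towards differentiation. One channel of each Agilent 2-colour array held RNA of cells with a short hairpin against ZRF1 (gene symbol DNAJC2), after 0.01 µM retinoic acid for 3 h or untreated (0 h). The other channel held RNA of NT2/D1 cells with a random hairpin, labelled shRandom, given the same treatment for the same time. At each time 3 biological replicates were each hybridised to a pair of arrays, a forward one with Cy5 on the knockdown RNA and a swapped one with Cy3 on it, which made 12 arrays. The sources used here do not say whether each hairpin line was a clone or a pool of cells. Each hairpin was compared in a line of its own, so the knockdown and any other difference between the lines cannot be told apart. The number of DNA copies of chromosome 4 was not measured here.

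The short arm of chromosome 4 ends in a gene-dense stretch whose loss from 1 copy causes Wolf-Hirschhorn syndrome, a disorder of growth and brain development. Its genes share no single function. From the telomere inwards come a group of KRAB zinc finger genes, which encode DNA-binding repressors, then genes of signalling, chromatin and vesicle traffic, among them NSD2, a histone methyltransferase, and LETM1, a protein of the mitochondrial inner membrane. Further in lie the Huntington disease gene HTT, the paired genes EVC and EVC2 of cilium-dependent hedgehog signalling, and WFS1, an endoplasmic reticulum protein mutated in Wolfram syndrome.

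The promoters of the 2 members with the lowest mean log2 ratio and of the member with the highest are printed for the sequence around their starts. Each runs from 250 bases before to 50 bases after the gene's start as RefSeq gives it on GRCh38.p14. Capitals mark GC boxes, the letters GGGCGG on either strand (CCGCCC on the printed one). SPON2, which encodes a secreted matrix protein, is on the minus strand at chr4:1208795-1209094. PDE6B, which encodes a subunit of the rod photoreceptor phosphodiesterase, is on the plus strand at chr4:625323-625622. HTRA3, which encodes a serine protease, is on the plus strand at chr4:8269504-8269803.
SPON2: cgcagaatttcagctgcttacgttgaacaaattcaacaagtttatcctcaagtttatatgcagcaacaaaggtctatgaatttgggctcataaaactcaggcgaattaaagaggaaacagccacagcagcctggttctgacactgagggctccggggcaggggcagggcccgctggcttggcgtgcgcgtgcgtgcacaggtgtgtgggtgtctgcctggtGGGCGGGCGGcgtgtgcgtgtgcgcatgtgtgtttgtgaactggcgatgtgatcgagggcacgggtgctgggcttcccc
PDE6B: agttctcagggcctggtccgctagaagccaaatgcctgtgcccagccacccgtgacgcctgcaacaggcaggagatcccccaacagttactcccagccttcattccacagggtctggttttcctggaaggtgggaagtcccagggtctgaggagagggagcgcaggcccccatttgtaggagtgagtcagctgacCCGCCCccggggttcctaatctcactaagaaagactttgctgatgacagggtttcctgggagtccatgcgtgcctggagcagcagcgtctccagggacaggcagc
HTRA3: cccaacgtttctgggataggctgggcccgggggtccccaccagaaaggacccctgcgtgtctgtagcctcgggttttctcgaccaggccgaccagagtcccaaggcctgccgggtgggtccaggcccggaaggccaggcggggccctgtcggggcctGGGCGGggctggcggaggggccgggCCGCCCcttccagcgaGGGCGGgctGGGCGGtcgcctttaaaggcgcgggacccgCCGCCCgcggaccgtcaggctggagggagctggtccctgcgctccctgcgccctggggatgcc

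The SPON2 window held 2 GC boxes that overlap, 17 CpG sites and 56.3% G and C. The PDE6B window held 1 GC box, 8 CpG sites and 60.0% G and C, and the HTRA3 window held 5 GC boxes, 27 CpG sites and 74.7% G and C. So both low members shown had promoters poorer in CpG than the high one, but this did not hold for the members next in order. NICOL1 and NAT8L, the next lowest, had 37 and 49 CpG sites, and SH3TC1, the next highest, had 16. Over the 83 of 98 members with a promoter in the RefSeq table, the median promoter had 71.3% G and C and 32 CpG sites. The median of the 14606 promoters of array genes had 63.3% and 23 CpG sites, and that of all 27305 promoters had 58.3% and 14. A GC box stood in 72.3% of the members' promoters, 60.5% of those of array genes and 44.6% of all. TATAAA, searched on both strands, stood in 7.23% of the members' promoters and 8.72% of those of array genes. CACGTG, which reads the same on both strands, stood in 13.3% of the members' promoters and 9.04% of those of array genes. None of the 3 motifs contains another, although CACGTG and a GC box can share a letter, and a match is only a run of letters in the window. The mean log2 ratio of a member and its promoter's CpG count correlated at r = -0.17 (rho = -0.25) over the 83 members. That direction is opposite to the one among the 3 promoters shown. With the promoter's G and C content r was -0.05. Both are across genes of the same 12 arrays and given with no test. Members with a promoter of 71.3% G and C or more had a median log2 ratio of -0.062 (n = 42), and the other members with a promoter had -0.061 (n = 41). All genes divided at that same content had medians of -0.0036 (n = 3417) and 0.0015 (n = 11189).

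The targeted gene was checked first. DNAJC2, the ribosome-associated J-domain chaperone also called ZRF1, had log2 ratios of knockdown over control of -1.62, -0.44 and -0.82 in the 3 h replicates and -0.58, -1.01 and -0.52 in the 0 h replicates. It lay below 0 on 12 of 12 arrays, a sign that the rule for turning the swapped arrays required. Its mean over both times was -0.83, a ratio of 0.563. It gave -2.73 on the forward array of 3 h replicate 1 and -1.41 on the swapped array of 0 h replicate 2. The other arrays lay between -0.97 and -0.39. Its forward mean was -0.94, and -0.58 without the first of those arrays. It passed an adjusted p of 0.05 at 3 h and over both times but not at 0 h (limma). PCGF3, a Polycomb subunit that lies inside the stretch and is not counted, averaged -0.13 ± 0.049 (SD over 6 replicates) and is named only because the rule leaves it out. Of 9 listed embryonal carcinoma markers 8 were measured, with mean log2 ratios between -0.083 (LIN28B) and 0.020 (NANOG). LIN28B and DNMT3B lay below 0 in all 6 replicates. Both passed an adjusted p of 0.05 on the lower side over both times (limma), as did 10.7% of all genes, and no marker passed on the higher side. POU5F1 averaged -0.60 on forward and 0.57 on swapped arrays, and L1TD1 -0.47 and 0.33, so their means near 0 hide opposite signs. Ratios hold no levels, so the presence of the markers could not be checked. The spread of log2 ratios between percentiles 1 and 99 was over 1.2 times the median array's on 3 arrays, namely the forward array of 3 h replicate 1, the swapped array of 3 h replicate 3 and the swapped array of 0 h replicate 2.

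Most members were slightly lower in the knockdown. The median member had a log2 ratio of -0.059 over both times, a ratio of 0.960, against -0.0027 for the 29 genes of the next 10 Mb and 0.0004 for all genes. Of the 98 members, 79 lay below 0 (80.6%), against 15 of 29 genes of the next 10 Mb (51.7%) and 49.6% of all genes. The effect was small for most: 27 members lay below -0.1, against 9.91% of all genes, and 4 below -0.3, against 0.992%. Above 0.1 there were 2 members, against 8.81% of all genes. The middle 50% of the members lay between -0.12 and -0.014. At 3 h the median was -0.063, with 74 members below 0 (47.4% of all genes), and at 0 h it was -0.052, with 81 below 0 (51.3% of all genes). In the next 10 Mb the medians were 0.014 at 3 h and -0.019 at 0 h. The 598 remaining genes of chromosome 4 had a median of 0.0036 over both times. In bulk RNA of this kind, fewer expressing cells and less RNA per cell cannot be told apart.

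The sign was the same on every array for the group but not for every gene. The median of the members lay below 0 on 12 of 12 arrays, between -0.084 and -0.029. On the forward arrays it was -0.074, -0.064 and -0.070 at 3 h and -0.067, -0.077 and -0.084 at 0 h. On the swapped arrays it was -0.029, -0.057 and -0.052 at 3 h and -0.039, -0.082 and -0.043 at 0 h. The forward values were thus lower than the swapped ones in 5 of 6 replicates, the exception being 0 h replicate 2. Medians of the next 10 Mb ran from -0.057 to 0.021 and lay on both sides of 0 among the arrays. The plot of medians by array shows the members below the next 10 Mb on 11 of 12 arrays, the exception being the swapped array of 0 h replicate 1.

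**Figure D1:**
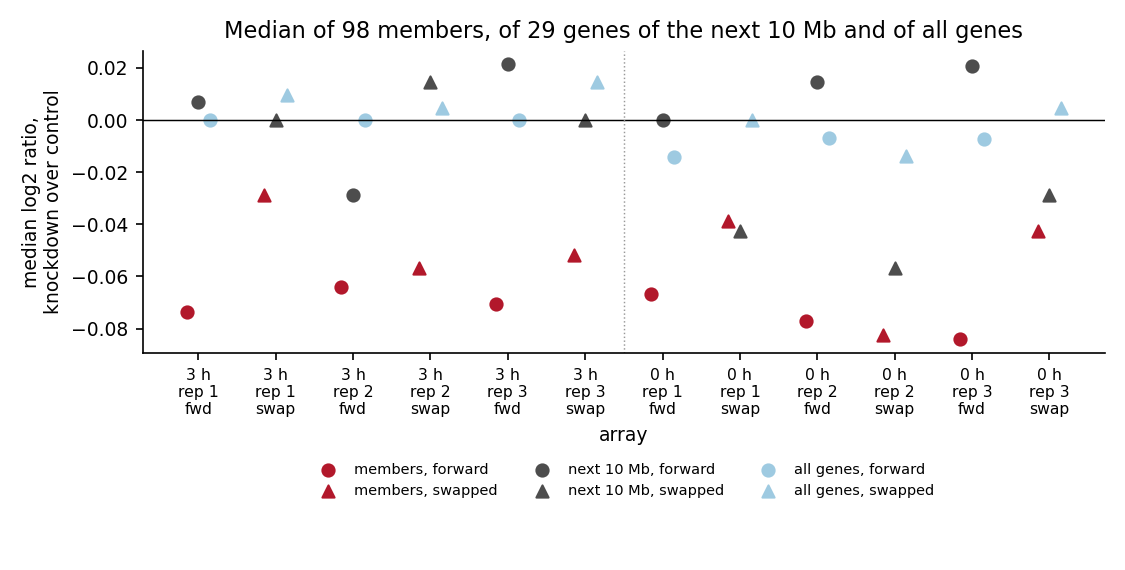
Median log2 ratio, knockdown over control, on each of the 12 arrays (3 h on the left, 0 h on the right) for the 98 members (red), the 29 genes of the next 10 Mb (dark grey) and all 18646 genes (light blue). Circles are forward arrays and triangles are swapped arrays with the sign turned, and the red points lie between -0.084 and -0.029, all below 0.

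Gene by gene, 40 of 98 members lay below 0 in all 6 replicates, against 13.3% of all genes. Another 4 lay above 0 in all 6, against 14.1% of all genes, and the remaining 54 had replicates on both sides or at 0. On all 12 arrays 21 members lay below 0, against 4.61% of all genes. The forward mean and the swapped mean were both below 0 for 54 members, against 22.9% of all genes, and both above 0 for 12, against 23.1%. In 19 members the forward mean was below 0 and the swapped mean above it, against 5510 of 18646 genes. In 13 members the reverse held, against 4542 of 18646 genes. Both are smaller shares of the members than of all genes. The widest gap, seen after the values were known, was that of TNIP2, an inhibitor of NF-kappaB signalling, with a forward mean of -0.51 and a swapped mean of 0.34. Across the 98 members the forward and swapped means correlated at r = 0.09, and across all genes at -0.17, with both sets of arrays made from the same RNA. By limma with Benjamini-Hochberg adjustment over all genes, 35 members were past an adjusted p of 0.05 on the lower side over both times, where 10.7% of all genes were called lower, and 4 on the higher side, where 10.8% were. At 3 h the counts were 22 lower, with 5.77% of all genes called, and 3 higher, with 6.84%. At 0 h they were 15 lower, with 3.89% called, and 1 higher, with 2.92%. The limma counts at single times were unstable. With the replicate number as a block, 0 members and 0 of 18646 genes were called at either time, with 38 members lower at 3 h and 36 at 0 h at an unadjusted p under 0.05. With each time fitted alone, 0 members and 0 genes were called at 3 h, with 32 members lower unadjusted. Without 1 replicate at a time, the lower members ran from 5 to 16 at 3 h and from 0 to 27 at 0 h. The count of 0 came without 0 h replicate 1 or without 0 h replicate 3, where 12 and 34 of all genes were called lower and 34 members were lower unadjusted in each case. These calls use the values that chose the members and are given as counts only.

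**Figure D2:**
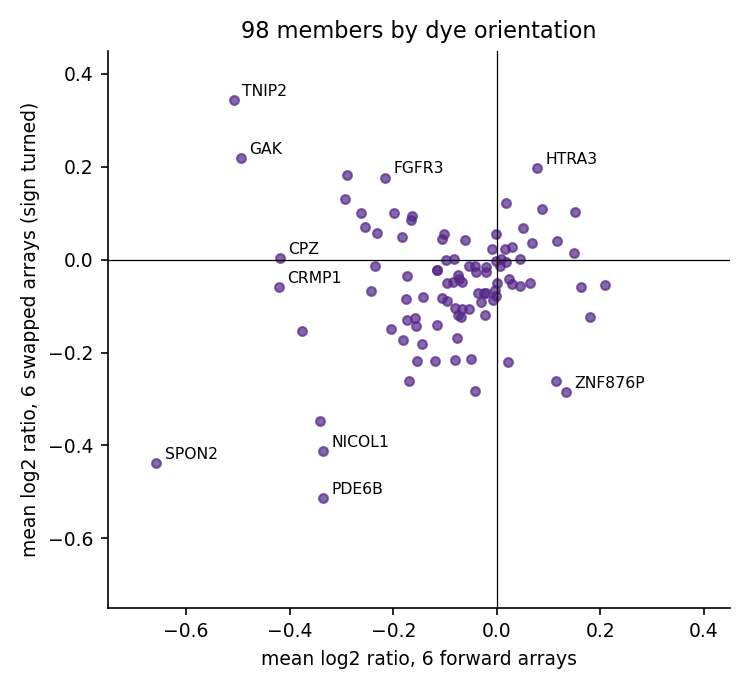
Mean log2 ratio of each of the 98 members over the 6 forward arrays (horizontal) and the 6 swapped arrays with the sign turned (vertical). The lower left holds 54 members, and GAK, TNIP2 and FGFR3 lie in the upper left, below 0 on forward arrays and above 0 on swapped ones.

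Along the chromosome the lowered values were not even. The 34 members that start in the first 2 Mb had a median of -0.084, and 30 of them lay below 0. From 2 to 4 Mb the median was -0.062 (20 of 22 below 0), from 4 to 6 Mb it was -0.023 (9 of 13), and from 6 to 8 Mb it was -0.073 (14 of 17). From 8 to 10 Mb the median was 0.025 and 4 of 10 members lay below 0, so this stretch was not lowered as a group. Only ZNF518B and HS3ST1 start beyond 10 Mb, and both lay below 0 in all 6 replicates. The 4 to 6 Mb stretch had a forward median of -0.021 and a swapped median of -0.0053, and the 2 to 4 Mb stretch had -0.11 and -0.015. In windows of 10 Mb over the whole of chromosome 4, the first window had a median of -0.059 (n = 96) and the other 19 had medians between -0.0098 and 0.036, the latter of a window with 1 gene. A member's mean log2 ratio and its start correlated at r = 0.24 (rho = 0.23) across the 98 members, and its mean log2 ratio and gene length at r = 0.02.

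**Figure D3:**
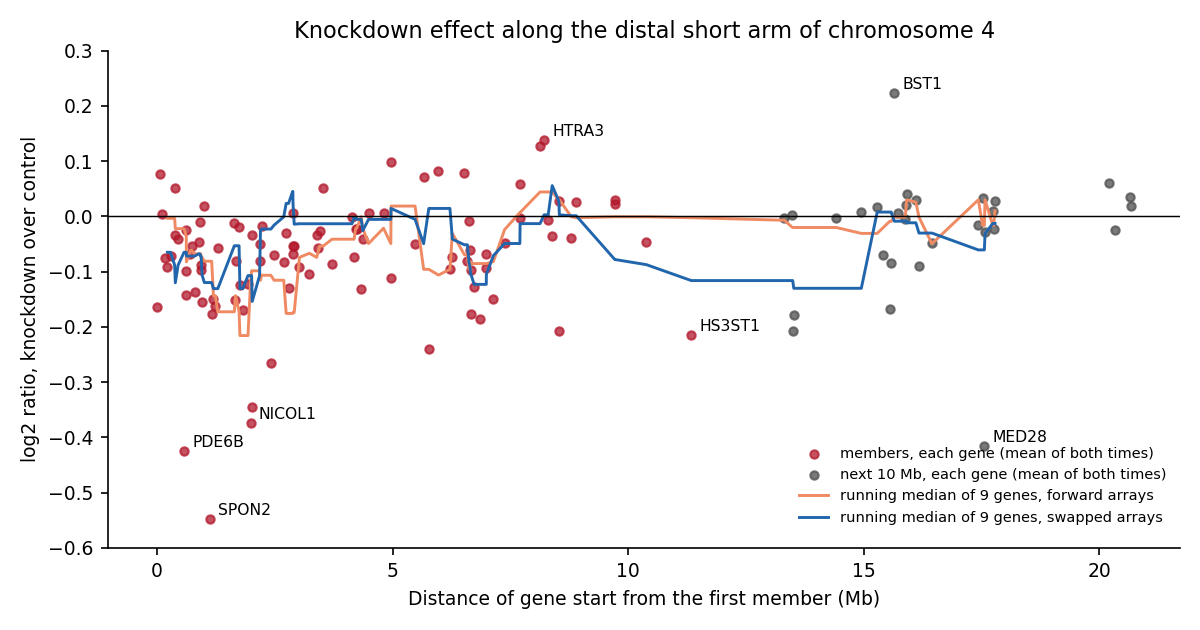
Log2 ratio, knockdown over control, of each gene (mean of both times) against the distance of its start from that of the first member, in Mb, for the 98 members (red) and the 29 genes of the next 10 Mb (grey). Lines are running medians of 9 neighbouring genes on forward (orange) and swapped (blue) arrays, and windows near the boundary hold genes of both sets. Both lines lie below 0 over most of the first 2 Mb and above 0 at their highest point near HTRA3.

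At the boundary, the 3 members just inside it averaged 0.02 (DRD5, a dopamine receptor), -0.05 (ZNF518B, a zinc finger protein) and -0.22 (HS3ST1, a heparan sulfate sulfotransferase). The 3 genes just outside it averaged -0.0028 (RAB28, a small GTPase), 0.0031 (NKX3-2, a homeobox factor) and -0.21 (LINC01096, a noncoding RNA). LINC01096 lay below 0 on 12 of 12 arrays, as did the next gene, BOD1L1, at -0.18 ± 0.071 (SD over 6 replicates), so single genes beyond the boundary were as low as many members. The lowest mean of the next 10 Mb, -0.42 for the Mediator subunit gene MED28, rests on 1 array: the swapped array of 0 h replicate 2 gave -5.14, and without that replicate the mean was 0.017. The highest was BST1, an ADP-ribosyl cyclase, at 0.22 ± 0.048 (SD over 6 replicates), above 0 on 12 of 12 arrays. At the telomere, ZNF595 averaged -0.16, ZNF718 0.08 and the pseudogene ANKRD20A12P 0.0052.

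SPON2 was the lowest member, at chr4:1166932-1208844, measured by 1 probe. Its log2 ratios were -1.05, -0.36 and -0.50 in the 3 h replicates and -0.40, -0.60 and -0.38 in the 0 h replicates. The mean was -0.63 ± 0.36 at 3 h and -0.46 ± 0.12 at 0 h (SD, n = 3 each), a ratio of 0.684 over both times. It lay below 0 on 12 of 12 arrays, with -1.77 on the forward array of 3 h replicate 1 and between -0.72 and -0.32 on the other 11. PDE6B was next, at chr4:625573-670782, measured by 2 probes that averaged -0.52 and -0.33. It had -0.49, -0.37 and -0.41 in the 3 h replicates and -0.34, -0.59 and -0.35 in the 0 h replicates, with 12 of 12 arrays below 0 and a ratio of 0.745. The time points overlapped for both genes.

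NICOL1, which encodes a small secreted peptide, and NAT8L, the enzyme that makes N-acetylaspartate, are neighbours and were the next lowest. NICOL1 had -0.58, -0.31 and -0.37 in the 3 h replicates and -0.27, -0.47 and -0.25 in the 0 h replicates. NAT8L had -0.65, -0.25 and -0.26 in the 3 h replicates and -0.22, -0.41 and -0.27 in the 0 h replicates. Both lay below 0 on 12 of 12 arrays, NICOL1 with a forward mean of -0.34 and a swapped mean of -0.41, and NAT8L with -0.34 and -0.35. Each was measured by 1 probe. In both genes the lowest 3 h replicate was replicate 1 and the lowest 0 h replicate was replicate 2, the replicates that hold the 2 widest arrays. In the fit of single arrays without the 3 wide arrays, the median of the members was -0.059 at 3 h and at 0 h.

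**Figure D4:**
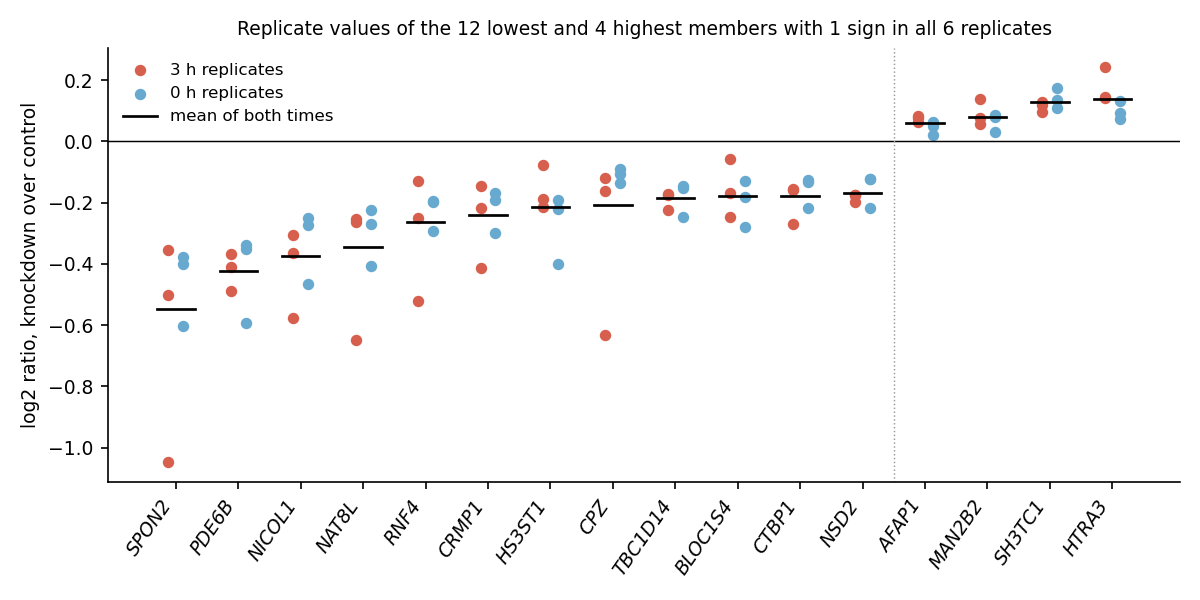
Log2 ratio, knockdown over control, in each replicate for the 12 lowest members and the 4 that lay above 0 in all 6 replicates, with 3 h replicates in red to the left of 0 h replicates in blue. Black bars mark the mean of both times, which runs from -0.55 for SPON2 to 0.14 for HTRA3. The lowest point of SPON2, NICOL1, NAT8L, RNF4, CRMP1, CPZ and CTBP1 is 3 h replicate 1.

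Calls in this and the following lists are over both times, where 10.7% of all genes were called lower and 10.8% higher. Of all genes, 49.6% lay below 0. Each list is a part of the members, which were chosen as low, so its counts are description only. Among the KRAB zinc finger genes at the tip, 5 of 6 lay below 0, with a median of -0.073, and 2 were called lower. ZNF595 had -0.13, -0.14 and -0.22 at 3 h and -0.10, -0.21 and -0.18 at 0 h, and lay below 0 on 12 of 12 arrays. Its forward mean was -0.04 and its swapped mean -0.28. ZNF732 averaged -0.09 ± 0.085 and ZNF718 0.08 ± 0.20 (SD over 6 replicates). Zinc finger genes of this group are similar in sequence, and the group includes the pseudogene ZNF876P. Whether their probes tell them apart was not tested.

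All 10 genes listed for the Wolf-Hirschhorn region lay below 0 (49.6% of all genes), with a median of -0.10. Of these, 5 were called lower (10.7% of all genes) and none higher (10.8%). CTBP1, a transcriptional corepressor, averaged -0.19 ± 0.064 at 3 h and -0.16 ± 0.050 at 0 h (SD, n = 3 each). Its 4 probes averaged between -0.39 and -0.075, and all 6 replicates lay between -0.27 and -0.13. NSD2 had -0.18, -0.17 and -0.20 at 3 h and -0.12, -0.22 and -0.12 at 0 h, and its 6 probes averaged between -0.29 and -0.092. FGFRL1, a receptor-like protein of fibroblast growth factor signalling, averaged -0.15 ± 0.025 (SD over 6 replicates) with 12 of 12 arrays below 0. Its 2 probes were unlike, averaging -0.29 and -0.024. LETM1 averaged -0.12 ± 0.047 (SD over 6 replicates), with -0.24 on forward and -0.014 on swapped arrays. Of the same list, 5 genes had replicates on both sides of 0, namely FGFR3, TACC3, SLBP, PIGG and CPLX1. FGFR3 averaged -0.22 on forward and 0.18 on swapped arrays, and TACC3 -0.29 and 0.13. FGFR3, TACC3, PIGG and CPLX1 are named after their values were seen.

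Of the 14 measured genes of transcription, chromatin and DNA repair, 13 lay below 0, with a median of -0.053, 6 were called lower and none higher. RNF4, a ubiquitin ligase that targets SUMO-modified proteins, had -0.52, -0.13 and -0.25 at 3 h and -0.20, -0.29 and -0.20 at 0 h. It lay below 0 on 12 of 12 arrays and both of its probes averaged below -0.25. MAEA, a subunit of the CTLH ubiquitin ligase, averaged -0.16 ± 0.055 (SD over 6 replicates), with 12 of 12 arrays below 0, and is named after its values were seen. MSX1, a homeobox factor, was the 1 member of this list above 0, at 0.0071, and is also named after its values were seen. The receptor, ligand and signalling genes had 14 of 19 below 0, a median of -0.053, 5 called lower and none higher. In this list SPON2 and FGFRL1 were followed by SORCS2, a sorting receptor of neurons. SORCS2 averaged -0.13 ± 0.0037 at 3 h and -0.17 ± 0.023 at 0 h (SD, n = 3 each), so its time points did not overlap, although the difference did not pass the test (adjusted p = 0.719, limma).

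The cytoskeleton and scaffold genes had 7 of 8 below 0, with a median of -0.11, 5 called lower and 1 higher. CRMP1, a cytoplasmic mediator of semaphorin signals, had -0.41, -0.22 and -0.15 at 3 h and -0.19, -0.30 and -0.17 at 0 h. Its forward mean was -0.42 and its swapped mean -0.06. MYL5, a myosin light chain, averaged -0.14 ± 0.073 and ADD1, alpha-adducin of the spectrin network, averaged -0.13 ± 0.032 (SD over 6 replicates), both below 0 on 12 of 12 arrays. The member called higher was AFAP1, an actin filament-binding protein, at 0.06 ± 0.022 (SD over 6 replicates).

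All 8 genes of vesicle traffic and autophagy lay below 0, with a median of -0.093 and 3 called lower. TBC1D14, a regulator of autophagosome formation, had -0.22, -0.17 and -0.17 at 3 h and -0.15, -0.25 and -0.15 at 0 h, and its 3 probes averaged between -0.24 and -0.15. BLOC1S4, a subunit of the complex that builds lysosome-related organelles, averaged -0.18 ± 0.080 (SD over 6 replicates), with a forward mean of -0.18 and a swapped mean of -0.17. GAK, a kinase that helps uncoat clathrin vesicles, lay below 0 in all 6 replicates but opposed itself between dyes. Its 6 forward arrays ran from -1.30 to -0.27 and its 6 swapped arrays from 0.05 to 0.36. Its mean of -0.14 became -0.062 without 3 h replicate 1.

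Among genes of the lysosome, endoplasmic reticulum, mitochondrion and peroxisome, 8 of 9 lay below 0, with a median of -0.047, 4 called lower and 1 higher. ATP5ME, a small subunit of the ATP synthase, averaged -0.10 ± 0.077 and IDUA, the lysosomal enzyme lacking in Hurler syndrome, averaged -0.10 ± 0.058 (SD over 6 replicates). ATP5ME turned to 0.022 on the forward arrays alone. MAN2B2, a lysosomal mannosidase, was the member called higher, at 0.08 ± 0.036 (SD over 6 replicates), and lay below 0 on none of the 12 arrays. All 5 genes of RNA and ribosome assembly lay below 0, with a median of -0.035 and 2 called lower. NELFA, a subunit of the negative elongation factor, averaged -0.12 ± 0.045 (SD over 6 replicates), with 12 of 12 arrays below 0. NOP14, which acts in assembly of the small ribosomal subunit, averaged -0.07 and turned to 0.049 on the swapped arrays alone. TRMT44, a tRNA methyltransferase, averaged -0.04, with -0.16 on forward and 0.094 on swapped arrays.

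Of the 13 transporters, enzymes and proteases, 11 lay below 0, with a median of -0.053, 5 called lower and 1 higher. After PDE6B and NAT8L came HS3ST1, with -0.21, -0.08 and -0.19 at 3 h and -0.19, -0.40 and -0.22 at 0 h, below 0 on 12 of 12 arrays. CPZ, a secreted carboxypeptidase, averaged -0.21 over both times, and 1 array set that value. It gave -1.28 on the forward array of 3 h replicate 1, and without that replicate its mean was -0.13. Its other forward arrays lay between -0.30 and -0.21 and its swapped arrays between -0.11 and 0.04. The 20 members in none of these lists had a median of -0.034, with 12 below 0. Protein-coding members had a median of -0.067 (75 of 88 below 0). The 10 noncoding RNAs and pseudogenes had 0.0060 (4 of 10 below 0). CTBP1-DT, named after its value was seen, was the 1 of these 10 called lower, at -0.15 ± 0.053 (SD over 6 replicates), and it overlaps the start of CTBP1. Overlapping pairs such as NOP14 with NOP14-AS1, AFAP1 with AFAP1-AS1 and SLC26A1 with IDUA were not tested for shared signal.

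The 4 members above 0 in all 6 replicates were HTRA3, SH3TC1, MAN2B2 and AFAP1, which start between 6.6 and 8.3 Mb. HTRA3 had 0.24, 0.14 and 0.15 at 3 h and 0.07, 0.13 and 0.09 at 0 h. Its time points did not overlap, and the difference of 0.08 ± 0.039 (SE) did not pass the test (adjusted p = 0.718, limma). Its neighbour SH3TC1 had 0.13, 0.12 and 0.10 at 3 h and 0.11, 0.14 and 0.18 at 0 h, above 0 on 12 of 12 arrays. Among the members below 0 in all 6 replicates, those nearest 0 were LRPAP1, a chaperone of lipoprotein receptors, at -0.03 ± 0.017, and SH3BP2, an adaptor protein, at -0.03 ± 0.026 (SD over 6 replicates).

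Signs of single probes are given as description only. Members were chosen as low, so probes of the same gene would often share a sign in any case. The shares over all probes and over all genes with several probes were not counted. Of 167 member probes, 133 averaged below 0. Of the 46 members with 2 or more probes, 30 had every probe below 0, 5 had every probe above 0 and 11 had probes on both sides. The median range between probes of a member was 0.064 on the log2 scale, about as large as the median effect. The 46 members with several probes had a median of -0.072 with 40 below 0, and the 52 members with 1 probe had -0.053 with 39 below 0.

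How far the knockdown effect differed between 3 h and 0 h was not used to choose the members and could be tested. No member and no gene of the array passed an adjusted p of 0.05 in limma (percent called 0), and the smallest adjusted p was 0.718. At an unadjusted p under 0.05 there were 4 of 98 members, 3 of them higher at 3 h, and 943 of 18646 genes (5.06%). The members' differences had a median of -0.0004, with 50 of 98 below 0, and ran from -0.19 to 0.31. Those extremes belong to CPZ and ZNF718. With 3 replicates at each time, these tests do not show that the effects were alike. The 3 h and 0 h log2 ratios of the members correlated at r = 0.79 (rho = 0.65) across genes, against 0.59 (rho = 0.54) over all genes, as a description of the same arrays and with no test.

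**Figure D5:**
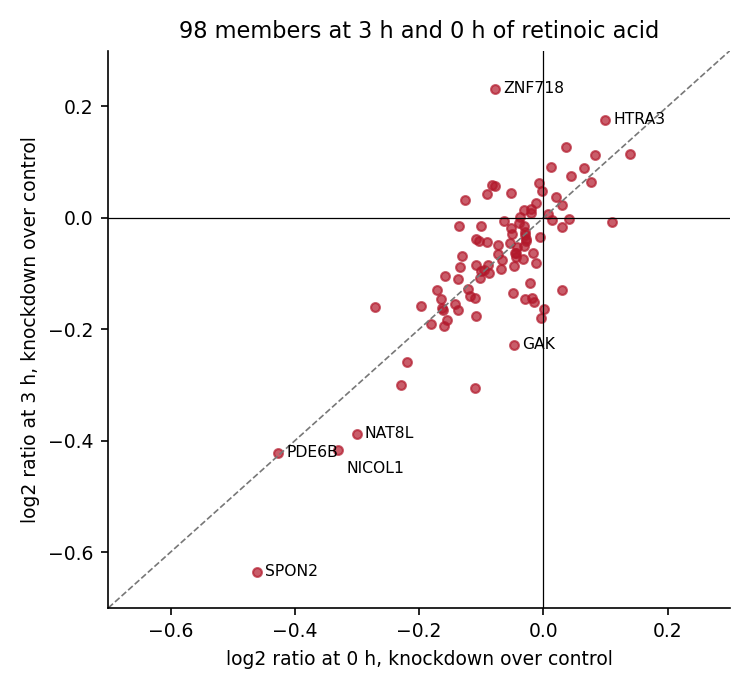
Log2 ratio, knockdown over control, of the 98 members at 3 h of retinoic acid (vertical) and at 0 h (horizontal), each point a gene and the dashed line equal values. SPON2, PDE6B, NICOL1 and NAT8L are low at both times, and ZNF718 lies farthest above the dashed line.

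ZNF718 had the smallest p among the members. It had 0.37, 0.15 and 0.17 at 3 h and 0.06, -0.15 and -0.15 at 0 h, so the time points did not overlap. The difference was 0.31 ± 0.083 (SE), with an unadjusted p of 0.00803 and an adjusted p of 0.718 by limma. The next 4 were PSAPL1, a prosaposin-like protein, SLBP, which binds the stem-loop of histone mRNA, HTT, and the antisense RNA AFAP1-AS1. PSAPL1 averaged 0.03 at 3 h and -0.13 at 0 h, and SLBP averaged 0.06 at 3 h and -0.08 at 0 h. HTT averaged -0.18 at 3 h and -0.0034 at 0 h, and AFAP1-AS1 0.05 at 3 h and -0.05 at 0 h. None of the 5 passed after adjustment.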

How the data were processed

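The 98 members and the gene lists were chosen with earlier results of these data known. The values the authors deposited for the 12 arrays were read as fold change ratios, Cy5 divided by Cy3, in which a ratio below 1 appears as its negative inverse. No label names this unit, and it follows from the values, since 0 of them fall between -1 and 1. The submitters' processing notes name limma without a version, and no source used here gives the background correction or normalization. The arrays had nearly equal medians and interquartile ranges. Intensities did not come with the ratios, which left dim probes unfiltered, and precision is limited by the number of arrays. Per the labels' protocols, 500 ng of RNA was labelled per reaction. The labels number the knockdown line differently from sample to sample in their characteristics, and it was treated as 1 line.

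The deposited ratios were converted to log2, and the sign of swapped arrays was turned, a direction taken from the labelled dyes and checked on DNAJC2. Of 41000 probes, 29341 had 1 gene symbol, 33 had several and 11626 had none. Positions and symbols came from a RefSeq table of GRCh38.p14 through Entrez numbers, and 36 genes had no position. Probes of a gene and then the forward and swapped array of a replicate were averaged. Models were fitted over 18646 genes with limma 3.58.1 in R 4.3.3 (lmFit, eBayes), with 1 coefficient per time, 4 residual degrees of freedom and Benjamini-Hochberg adjustment at 0.05, after a test on simulated data. The labels call the replicates biological without naming separate cultures, so p-values measure the spread between these samples. Replicate numbers were not used as a block, since deviations of same-numbered replicates correlated at 0.037, -0.029 and -0.30.

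The named genes were the 12 lowest and 6 highest members with 1 sign in 6 replicates, up to 3 per list by size of effect, the 3 on each side of the boundary, the 3 nearest the telomere, the 5 with the smallest p for the time difference, and the 3 lowest and 3 highest genes of the next 10 Mb. Alternatives changed the scaling, dye orientation, wide arrays, probe handling, boundary, block, fit and replicates.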

Additional observations from a re-analysis of the deposited data

Results flagged for a closer look

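Dixon's ratio, at the cutoff used, flags about 1 in 20 sets of 6 independent values from a normal distribution. The sets here mix forward and swapped arrays of unlike spread, in genes named partly for extreme values, so that rate need not hold. Checked were 98 sets of 6 arrays: 47 named genes and the medians of the members and of the next 10 Mb, at each time. Of these, 17 held an array far from the other 5. At 3 h, 9 fell on the forward array of replicate 1, which has the widest spread of log2 ratios: SPON2 at -1.77 (others -0.52 to -0.32), NAT8L at -1.04, RNF4 at -0.92, CPZ at -1.28, CTBP1 at -0.46, GAK at -1.30, HTT at -0.69, and, above the others, ZNF718 at 0.77 and SLBP at 0.41. At 0 h, 7 fell on the swapped array of replicate 2, the next widest: PDE6B at -0.84 (others -0.46 to -0.25), NICOL1 at -0.70, NAT8L at -0.57, HS3ST1 at -0.62, TBC1D14 at -0.37, NSD2 at -0.34 and MED28 of the next 10 Mb at -5.14. The last was BST1 of the next 10 Mb, at 0.38 on the forward array of 0 h replicate 3 (others 0.19 to 0.21). In SPON2, NAT8L, RNF4, CTBP1, PDE6B, NICOL1, HS3ST1, TBC1D14 and NSD2 the other 5 arrays also lay below 0.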

How the results depend on the processing

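The median of the members lay below 0 in 50 of 50 alternatives, between -0.0766 and -0.0375. Several of these could not move it. The replicate block and the fit of each time alone leave every mean as it was. The outward boundary move added no gene, and leaving out a replicate cannot change the other time's median. The remaining alternatives reuse the same arrays, on members chosen as low on them. The count is therefore description only. On forward arrays alone the median of the members was -0.0766 at 3 h, -0.0646 at 0 h and -0.0732 over both. On swapped arrays alone it was -0.0375 at 3 h and -0.0491 over both. With 1-probe genes it was -0.043 at 3 h. Medians of the next 10 Mb moved to 0.0046 at 3 h and 0.0001 at 0 h on forward arrays, 0.0021 at 3 h on swapped arrays and -0.0027 at 0 h after rescaling to one width.

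Counts of called members moved more, and the share of all genes called moved with them; each pair gives lower then higher, with the all-gene percentages in brackets. After rescaling, 25 and 2 members were called at 0 h (7.75% and 7.64%). After quantile normalization, 27 and 2 were called at 0 h (8.19% and 7.32%) and 7 higher over both (14.6%). On forward arrays there were 9 and 0 at 3 h (3.66% and 3.11%) and 7 and 0 at 0 h (2.7% and 1.59%). On swapped arrays there were 12 lower at 3 h (5.43%), 23 and 6 at 0 h (2045 and 2382 genes) and 13 higher over both (3736 genes). Without the 3 wide arrays, single arrays were fitted with a dye coefficient, so the forward and swapped array of a replicate counted as separate samples. That fit gave 35 lower at 3 h (9.63%), 32 and 3 at 0 h (9.83% and 8.74%) and 7 higher over both (14.9%). These counts reflect the change of sample unit as well as the removal, and the 2 cannot be told apart. With 1-probe genes, which leave 52 members, there were 7 and 1 at 3 h (4.77% and 6.32%), 5 lower at 0 h (3.8%), and 12 and 2 over both (9.64% and 10.1%). With each time fitted alone there were 0 and 0 at 3 h, as over all genes (32 and 8 members at an unadjusted limma p under 0.05), and 24 lower at 0 h (5.58%). The replicate block, which leaves fewer residual degrees of freedom, gave 0 and 0 at 3 h (38 and 8 unadjusted) and 0 and 0 at 0 h (36 and 3 unadjusted), as over all genes, and 26 and 2 over both (5.06% and 4.84%).

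Leaving out 1 replicate at a time gave 5 to 16 lower and 0 to 1 higher at 3 h, 0 to 27 lower and 0 to 2 higher at 0 h, and 24 to 35 lower and 2 to 5 higher over both. The 0 h count of lower members was 0 without 0 h replicate 1 (12 of all genes) or replicate 3 (34 of all genes), with 34 members unadjusted in each case. It was 1 without 0 h replicate 2 (33 genes), 6 without 3 h replicate 2 (2.1%), 8 without 3 h replicate 3 (2.63%) and 27 without 3 h replicate 1 (7.22%). The 3 h count was 10 without 0 h replicate 1 (2.15%), 8 without 0 h replicate 3 (2.23%), 5 without 3 h replicate 2 (1.44%) and 12 without 3 h replicate 3 (3.21%). The 0 h median ran from -0.0639 to -0.0514. Genes past the threshold for the time difference numbered 0 to 1, the 1 without 3 h replicate 3, and members 0.

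Some alternatives could not move a gene's mean and count as unmoved. These are the replicate block, the fit of 1-probe genes, and the median over probes for genes with 1 or 2 probes. Of 633 alternatives of 47 named genes, 590 moved less than 1 SD, 41 moved more and 2 reversed: ATP5ME at 0.0222 on forward arrays and NOP14 at 0.0487 on swapped arrays. The cause was not tested. The alternative without multicopy families had no measured gene to remove. Moving the boundary by 1 Mb either way changed no call count by over 1.5 times, but this could hardly have come out otherwise. The outward move added no gene, and the inward move removed only HS3ST1. Without intensities, dim probes could not be told from bright ones.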
